A study of Mus musculus with 18 samples.

Results

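Tumor cells of 2 mouse pancreatic tumor lines, 6694c2 and 6419c5, were compared in the state in which Kdm3a was intact (wild type, WT). Of the 18 RNA sequencing libraries of the study, 6 enter this comparison, chosen by line and genotype alone: 3 WT libraries of 6694c2 and 3 WT libraries of 6419c5. The other 12 libraries come from the same lines after knockout of Kdm3a, a gene for a demethylase of lysine 9 on histone H3, with 2 clones per line and 3 libraries per clone. All cells, WT and knockout alike, were of strain C57BL/6, grew as implants under the skin without treatment, and were sorted from the tumors before RNA was extracted. The labels name neither the sort marker nor the sex or age of the hosts, and nothing states that the 3 libraries per group are from different animals. The p-values below therefore measure the spread between these libraries, which may be technical, and with 1 line on each side they describe these lines and no wider class of tumors. Genes were tested where the mean over the 6 WT libraries reached 1 TPM, a length-corrected share of the transcripts in a library, which left 13110 of 24493 genes.

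Pancreatic ductal tumor cells keep, to varying degrees, the program of the endoderm from which the pancreas arises. Cells of the classical state express gastric and intestinal secretory genes, mucins, claudins and keratins of simple epithelium, while cells of less differentiated states lose these and take on stratified or mesenchymal features. The Cdkn2a locus, which encodes brakes on the cell cycle and on p53 turnover, is among the loci most often lost in this cancer. ERK signaling and a raised flow of glucose through glycolysis are further features of these tumors.

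The lines differed broadly. With limma on log2(TPM + 1) and a Benjamini-Hochberg adjusted p under 0.05, 3934 genes were called, 30% of those tested. Of these, 1172 (8.94% of tested genes) were higher in 6694c2 and 2762 (21.1%) were lower. This split depended on the scale: the median difference over all tested genes was -0.22 as deposited, and after median-of-ratios scaling, which moved that median to -0.02, 1709 genes were higher and 1728 lower (49.7% of the calls higher, against 29.8% as deposited). After quantile normalization 1930 were higher and 1547 lower. List medians are therefore to be read against -0.22, and counts of called list members against 8.94% higher and 21.1% lower. Where a gene's call is lost after median-of-ratios scaling this is said. Calls that single genes gain by that scaling are mostly not given. All 3 libraries of a line lay above all 3 of the other for 1885 genes that were higher in 6694c2 (14.4%) and 4274 that were lower (32.6%). At least 4-fold higher in 6694c2 were 115 called genes, and at least 4-fold lower were 412. All differences are log2 differences, 6694c2 minus 6419c5, on the log2(TPM + 1) scale, on which folds of weakly expressed genes come out too small.

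**Figure D1:**
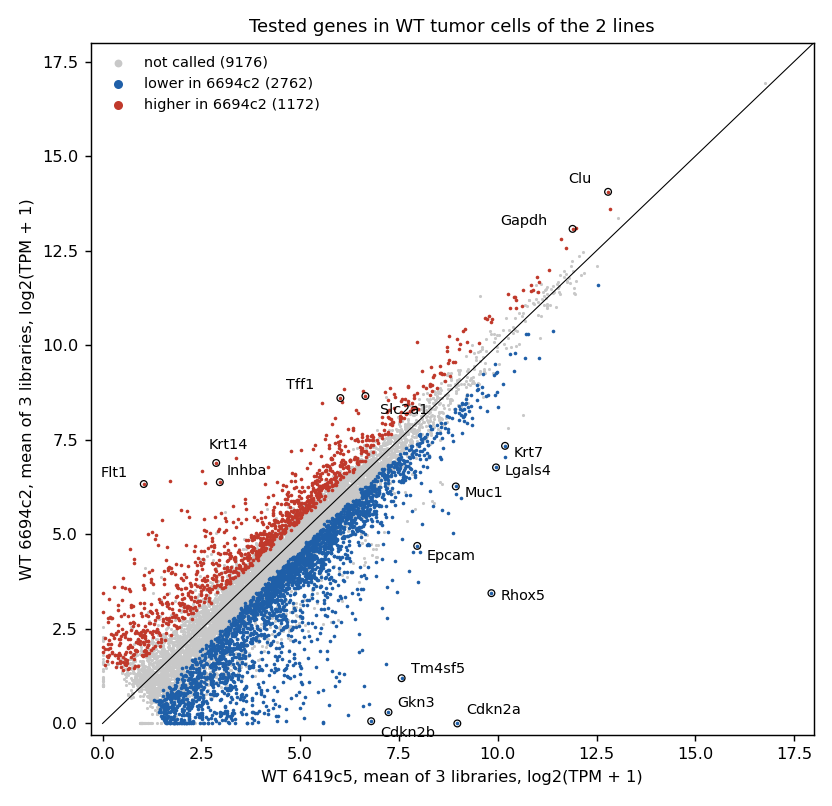
Mean log2(TPM + 1) of the 3 WT libraries of 6419c5 (horizontal axis) against that of the 3 WT libraries of 6694c2 (vertical axis) for the 13110 tested genes, with the diagonal of equal level. Blue points are the 2762 genes lower in 6694c2 and red points the 1172 genes higher; Cdkn2a lies on the floor of the plot at the far right, and Flt1 stands highest above the diagonal among the named genes.

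The libraries held between 12213 and 13123 genes with at least 1 TPM, and libraries of the same line correlated at 0.927 to 0.972 against 0.842 to 0.906 between lines (Pearson, across genes). The transcript Mir6236 took 8.32% to 17.4% of the TPM of a WT library. RNA of other cells was present after the sort. The macrophage index, the mean log2(TPM + 1) of 18 macrophage genes, was 5.70, 6.32 and 8.18 in WT 6419c5 and 4.61, 6.07 and 3.17 in WT 6694c2. The groups overlapped (difference -2.12, exact two-sided permutation p = 0.2, smallest possible 0.1). Summed over those 18 genes, the level ran from 2398 to 14632 TPM in WT 6419c5 and from 383 to 3459 TPM in WT 6694c2. Genes of T, B and islet cells were low, with Ins1 and Ins2 at 0 in all 6 libraries. With the macrophage index as a covariate, 2304 of the 3934 called genes kept their call and sign.

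The deepest difference was at the Cdkn2 locus on chromosome 4. Cdkn2a (RefSeq, GRCm38.p6, positions 89274473 to 89294619), which encodes p16INK4a and p19ARF, had 476, 523 and 512 TPM in WT 6419c5 and was listed at 0 in all 3 WT libraries of 6694c2 (limma adjusted p = 8.76e-07). Cdkn2b (89306289 to 89311032), which encodes the related inhibitor p15INK4b, had 113, 118 and 100.2 TPM against 0, 0 and 0.130 TPM. Both genes were thus abundant in every WT library of 6419c5 and at or near 0 in every WT library of 6694c2. Both passed the filter only through their level in 6419c5, which fixed their direction. Mtap (89137370 to 89181090), the metabolic gene next to them, was present in both lines, with 108, 75.5 and 78.3 TPM in 6419c5 against 86.6, 66.6 and 101 TPM in 6694c2 (difference -0.04 ± 0.21 SE, adjusted p = 0.901). The 6 knockout libraries of 6694c2 also held at most 0.526 TPM of Cdkn2a, with a median of 0.186 TPM, while those of 6419c5 held 480.3 to 544 TPM with a median of 510.3 TPM. Cdkn2b reached 1.16 TPM in the knockout libraries of 6694c2, against at least 99.4 TPM in those of 6419c5. TPM show transcripts only, and whether the locus is deleted or silent in 6694c2 was not tested.

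Of 19 tested genes of the p53 axis, including the Cdkn2 locus, 8 were lower in 6694c2 and none was higher, beside 21.1% lower and 8.94% higher over all genes. The list median was -0.24 beside -0.22 for all genes. After median-of-ratios scaling 5 were lower, beside 13.2% of all genes. Trp53 itself had 162, 171 and 166 TPM in 6419c5 against 150, 142 and 132 TPM, without overlap but not called (difference -0.24, adjusted p = 0.121). Cdkn1a, the p21 gene, and Mdm2, the p53 ligase and p53 target, overlapped between the lines (0.50 ± 0.32 and -0.13 ± 0.16). The calls were for the membrane protein Perp (-1.12) and the death receptor Fas (-1.19), beside Aen (-0.75) and Zmat3, Btg2 and Ei24, which lost their calls after median-of-ratios scaling.

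Gastric and intestinal secretory genes stood among the genes with the largest fall in 6694c2. Of 26 tested genes of the classical and gastric program, 18 were lower, 2 were higher, and the median was -2.16. Over all genes 21.1% were lower and 8.94% higher. The gastrokines, small secreted proteins of the stomach lining encoded side by side on chromosome 6, were the clearest case. Gkn3 had 111, 175 and 173 TPM in 6419c5 against 0, 0.858 and 0 TPM in 6694c2 (-6.94 ± 0.31, adjusted p = 8.39e-05). Gkn1 had 81.6, 97.7 and 109.97 TPM against 0.620, 0.498 and 0.0767 TPM (-6.13). Gkn2 had 64.2, 102 and 126 TPM against 3.27, 4.91 and 1.26 TPM (-4.62). All 3 genes were thus well expressed in every WT library of 6419c5 and far lower in every WT library of 6694c2. Gkn1 and Gkn3 passed the filter only through their level in 6419c5, which fixed their direction.

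The bases upstream of the gastrokine starts are shown because these neighbours moved together, with matches to AGATAA, the letters that GATA factors read, in capitals (searched on both strands, so that the reverse complement counts). The 250 bases before the start of Gkn1 (chr6:87350916-87351165, minus strand) and Gkn2 (chr6:87373115-87373364, plus strand), from RefSeq on GRCm38.p6 and written 5′ to 3′ along the gene, are these.
Gkn1: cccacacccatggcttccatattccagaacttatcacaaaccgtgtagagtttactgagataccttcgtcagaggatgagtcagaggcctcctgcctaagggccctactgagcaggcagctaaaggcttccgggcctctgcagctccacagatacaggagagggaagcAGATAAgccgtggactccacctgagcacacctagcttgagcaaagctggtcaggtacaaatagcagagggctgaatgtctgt
Gkn2: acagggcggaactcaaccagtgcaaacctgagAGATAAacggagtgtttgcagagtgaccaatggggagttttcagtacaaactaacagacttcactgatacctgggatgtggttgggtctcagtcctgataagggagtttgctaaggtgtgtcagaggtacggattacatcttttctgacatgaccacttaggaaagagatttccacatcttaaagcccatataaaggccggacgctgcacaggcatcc
Of 18 promoters of the list with a RefSeq entry, 33.3% held AGATAA within the window from 250 bases before to 50 bases after the start, against 6.29% of the 9994 promoters of tested genes. The interferon gamma list held it at the same share, 33.3% of 15 promoters, and the type I interferon list in 20% of 20. Such a match is a description and not a bound site. Of the GATA factors, Gata6 had 46.5, 42.4 and 38.6 TPM against 45.1, 41.9 and 46.3 TPM (0.07 ± 0.12, not called), Gata4 had 27.3 to 36.1 against 29.1 to 35.4 TPM, and Gata5 was lower in 6694c2 (-0.82).

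Further genes of this group fell in the same direction. The secreted disulfide isomerase Agr2 had 125, 131 and 176 TPM in 6419c5 against 2.68, 1.69 and 1.59 TPM in 6694c2 (-5.60). The membrane mucin Muc1 had 517, 560 and 406 TPM against 62.7, 78.5 and 89.0 TPM (-2.67). Lgals4, an intestinal galectin, had 1107, 1058 and 836 TPM against 91.2, 136 and 102 TPM (-3.19). In each of the 3 genes the lowest 6419c5 library lay far above the highest 6694c2 library. Tm4sf5 (-6.37), Prap1 (-6.23), the brush border cadherin Cdhr5 (-5.64), Lypd8 (-5.54), Arhgap44 (-4.94) and the glycosyltransferase gene B4galnt2 (-4.89) were further genes among the 15 with the largest fall. Tmem54, another of them, was listed at 0 in all 3 WT libraries of 6694c2 and had 36.9 to 57.0 TPM in 6419c5.

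Tff1, a trefoil peptide of gastric mucus, went the other way, with 81.1, 68.5 and 46.7 TPM in 6419c5 against 471, 503 and 247 TPM in 6694c2 (2.59 ± 0.33, adjusted p = 0.00245). Tff2 had 212, 296 and 169 TPM against 338, 381 and 316 TPM, no overlap, but was not called (0.64, adjusted p = 0.0664). The gastric protease Ctse was lower by a smaller step, with 536 to 621 TPM against 325 to 400 TPM (-0.73). The gastric mucin Muc5ac was the second called gene that was higher (1.02).

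Among 19 tested endodermal and ductal transcription factors 11 were lower and 1 was higher in 6694c2, with a median of -0.50, beside 21.1% lower and 8.94% higher over all genes. After median-of-ratios scaling the counts were 7 and 2, beside 13.2% and 13%. The intestinal regulator Cdx2 had 32.9, 38.5 and 29.5 TPM in 6419c5 against 3.74, 4.81 and 3.15 TPM (-2.83). Isx, an intestinal homeobox gene, had 8.35 to 14.6 TPM and was listed at 0 in all 3 libraries of 6694c2. Sox17 had 11.2, 8.30 and 6.89 TPM against 0, 0.141 and 0.0649 TPM (-3.17). Spdef (-2.90), a regulator of secretory cells, and Hnf4g (-2.65) fell as well. Foxa1, a factor of foregut endoderm, had 6.41, 5.43 and 5.18 TPM against 1.55, 2.11 and 3.56 TPM (-1.01). Pdx1, a regulator of pancreatic and foregut identity, had 60.3 to 83.4 TPM against 46.1 to 63.5 TPM (-0.38, not called), Foxa2 had 48.2 to 52.4 against 58.1 to 67.4 TPM (0.33, not called), and Hnf4a was lower by 0.50, a call that median-of-ratios scaling did not keep. Sox9, a ductal progenitor factor, was higher in 6694c2, with 94.3, 98.2 and 100.4 TPM against 63.7, 65.0 and 44.2 TPM (0.77).

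Most tested genes of epithelial contact were lower in 6694c2. Of 26 tested junction and adhesion genes 21 were lower and none was higher, with a median of -1.23. Over all genes 21.1% were lower and 8.94% higher. After median-of-ratios scaling 16 were lower, beside 13.2% of all genes. With the macrophage covariate 18 were lower, beside 14.2% of all genes. Epcam, an adhesion molecule of epithelium, had 273, 237 and 236 TPM in 6419c5 against 21.6, 28.3 and 25.2 TPM (-3.27 ± 0.14, adjusted p = 7.22e-05). Cdh1, which encodes E-cadherin, had 504, 470 and 409 TPM against 195, 175 and 219 TPM (-1.23). The tight junction claudin Cldn7 had 28.4, 33.6 and 30.9 TPM against 1.74, 3.04 and 1.18 TPM (-3.46). No library of 6694c2 reached the level of any 6419c5 library for these genes. Cldn4 (-3.18), Cldn3 (-2.89), the desmosomal cadherin Dsc2 (-4.53), the protease inhibitor Spint1 (-2.63), Marveld3 (-2.57) and Tjp3 (-2.29) showed further large falls. Tjp1 (-0.55), Dsp (-0.42), Jup (-0.18) and Cldn18 (0.14) were not called. Elf3, an epithelial transcription factor, fell from 163 to 221 TPM to 47.9 to 66.3 TPM (-1.79).

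Called keratins of simple epithelium were lower in 6694c2, while Krt14, a keratin of stratified epithelium, was higher. Of 7 tested keratins of simple epithelium 5 were lower in 6694c2 and none was higher (median -1.03), beside 21.1% and 8.94% over all genes. Krt7 had 1092, 1217 and 1185 TPM in 6419c5 against 178, 186 and 126 TPM (-2.85), and Krt19 had 2626, 2981 and 2544 TPM against 1449, 1518 and 1063 TPM (-1.03). Krt8 (-0.43) and Krt18 (0.12), the typical pair of simple epithelium, were not called. Of 4 tested keratins of stratified epithelium 2 were higher, both above 6419c5 in every library. Krt14 had 130, 114 and 109 TPM in 6694c2 against 5.89, 7.25 and 5.95 TPM (4.01 ± 0.13, adjusted p = 5.28e-05), and Krt16 had 2.24 to 2.95 TPM against 0.0567 to 0.167 TPM (1.63). Krt16 passed the filter only through its level in 6694c2, so that the filter had fixed its direction. Krt5, the usual partner of Krt14 in skin, did not reach the test, and the 7 genes of skin keratinocytes in the table summed to 14.3 to 16.2 TPM in 6419c5 and 118 to 143 TPM in 6694c2, Krt14 included. Of 17 tested mesenchymal genes 4 were higher and 2 lower (median 0.26), and after median-of-ratios scaling 6 were higher and none lower, beside 13% higher and 13.2% lower over all genes. Of the calls on the deposited scale, fibronectin Fn1 (1.25), N-cadherin Cdh2 (1.1), S100a4 (1.2) and Axl (0.60) were higher, Twist1 (-0.72) and Cdh11 (-1.07) were lower. Vim was high in both lines, with 2852 to 3134 TPM in 6419c5 against 3631 to 3769 TPM (0.28, not called). Zeb1 had 10.5 to 15.7 TPM against 16 to 27.8 TPM, without overlap (0.66, not called).

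**Figure D2:**
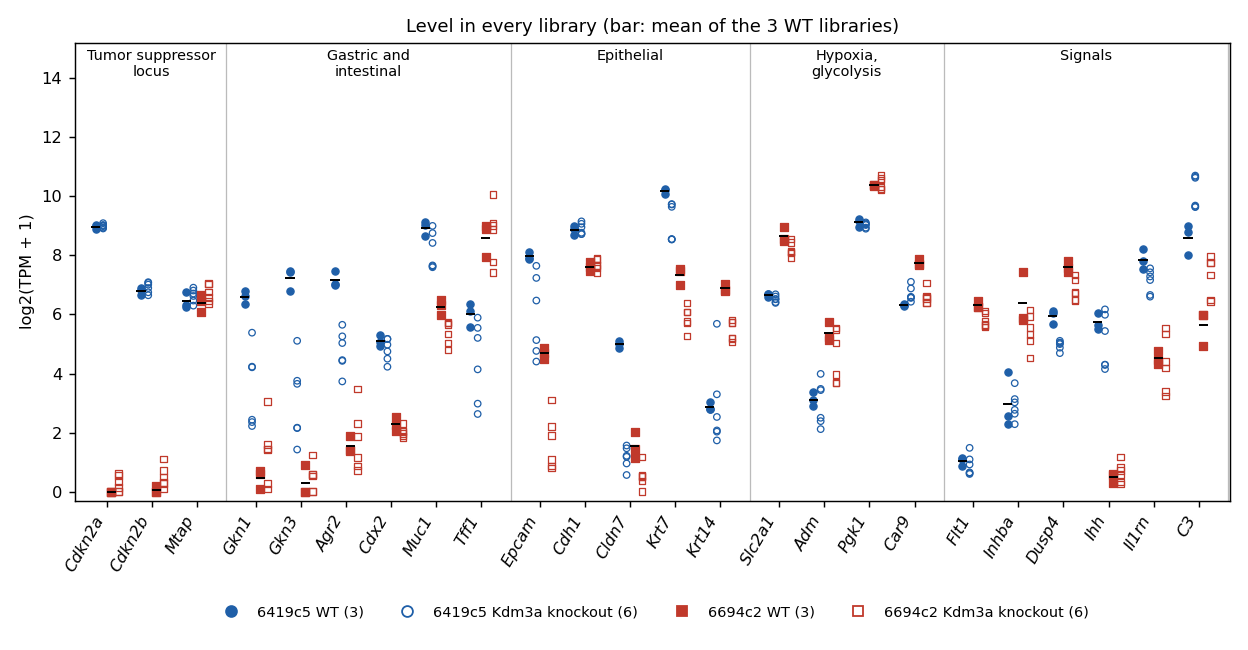
Level of 24 genes in every library as log2(TPM + 1), with filled symbols for WT and open symbols for knockout libraries (blue circles 6419c5, red squares 6694c2) and a bar at the mean of the 3 WT libraries. Cdkn2a (at most 0.526 TPM) and Cdkn2b (at most 1.16 TPM) are low in all red symbols, Mtap is level in all groups, and Cldn7 and Gkn1 are lower in the knockout libraries of 6419c5 than in its WT libraries.

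The gene with the largest rise in 6694c2 was Flt1, which encodes a receptor for VEGF-A that is best known from endothelial cells. Flt1 had 76.0, 75.9 and 87.0 TPM in 6694c2 against 1.17, 0.848 and 1.19 TPM in 6419c5 (5.29 ± 0.14, adjusted p = 3.33e-05). The endothelial genes Pecam1, with 0.615 to 1.28 against 1.14 to 3.18 TPM, and Cdh5, with 0.760 to 1.54 against 0.921 to 2.02 TPM, were low in both lines. The endothelial list summed to 19.8 to 30.8 TPM in 6419c5 and 88.1 to 94.0 TPM in 6694c2, most of it Flt1. Vegfa, the ligand, was also higher, with 212, 293 and 248 TPM against 150, 172 and 154 TPM (0.65).

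The other genes with the largest rise are of varied kinds. The matrix Gla protein gene Mgp had 80.3, 114 and 110.5 TPM in 6694c2 against 4.84, 5.09 and 4.16 TPM (4.16). It was above 6419c5 in all 3 libraries by a wide margin. The nuclear receptor gene Nr2f1 (3.85), the teneurin Tenm4 (3.83), the protease gene Prss12 (3.67), the spectrin-binding adducin Add2 (3.64), Mgarp (3.65), Tlcd2 (3.89), the lectin-like receptor gene Klra4 (3.55), the actin oxidase gene Mical1 (3.54), the sialic acid-binding lectin Siglec15 (3.75) and the semaphorin Sema7a (3.5) followed. Gm38670 (3.91), also in this set, was at 0, 0 and 3.25 TPM in 6419c5.

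Some genes were on in a single line. Of the 13110 tested genes 58 were under 0.5 TPM in all 3 WT libraries of 6694c2 and at 5 TPM or more in all 3 of 6419c5. The reverse held for 6, both counted on the deposited scale. Each of these genes passed the filter only through the line where it was high, so that the filter had fixed its direction. The same holds for every other named gene with a mean under 1 TPM in 1 line, such as Ihh. After the Cdkn2 pair, the first group included Lypd8, Tmem54, Arhgap44, the immunoglobulin transporter Pigr, Sult1d1, the amino acid transporter Slc7a9 and Snhg18. The second group was Cdh15, which encodes M-cadherin of muscle, the neuropeptide gene Npy, Fgd1, Cplx2, Fzd8 and Mapk15. Cdh15 had 13, 9.02 and 12 TPM in 6694c2 and at most 0.267 TPM in 6419c5, Npy 13.2, 7.40 and 7.01 TPM and at most 0.210 TPM. The knockout libraries of 6694c2 held at most 0.753 TPM of Cplx2 and at most 1.1 TPM of Fzd8.

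Of 39 Hox genes 4 passed the filter, each through its level in 6419c5, so that the filter had fixed their direction. Hoxb6 had 16.6, 18.9 and 16.7 TPM in 6419c5 against 0.0562, 0.194 and 0.347 TPM (-3.94), and Hoxa10 had 16.1, 13.6 and 13.4 TPM against 0.0633, 0 and 0 TPM (-3.91). The posterior gene Hoxa13 (-3.03) and Hoxb5 (-1.97) followed. The X-linked homeobox gene Rhox5, normally a gene of the reproductive tract, had 969, 886 and 894 TPM against 11.3, 10.8 and 7.94 TPM (-6.40). Wt1, a regulator of kidney and gonad development, had 16.8, 14.8 and 12.5 TPM against 0.299, 0.10 and 0.368 TPM (-3.64).

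Genes of the hypoxia response and of glycolysis were higher in 6694c2. Of 22 tested hypoxia genes 16 were higher and 2 lower, with a median of 1.09, and of 18 glycolysis genes 13 were higher and 1 lower, with a median of 0.86, beside 8.94% higher and 21.1% lower over all genes. After median-of-ratios scaling 18 hypoxia genes and 13 glycolysis genes were higher, and with the macrophage covariate 14 and 13. In these fits 13% and 5.89% of all genes were higher. The glucose transporter Slc2a1 had 358, 492 and 371 TPM in 6694c2 against 94.3, 102 and 102 TPM in 6419c5 (2.01 ± 0.15, adjusted p = 0.000373). The vasodilator peptide gene Adm had 34.1, 52.3 and 36.4 TPM against 6.39, 7.63 and 9.27 TPM (2.25). The prolyl hydroxylase P4ha2, which acts on collagen, had 75, 85.1 and 71.2 TPM against 21.9, 25.4 and 24.1 TPM (1.65). In all 3 genes the ranges were far apart. Stc1 (1.80), Bnip3 (1.47), Car9 (1.42), Hk2 (1.25), Egln3 (1.18), Ndrg1 (1.11) and P4ha1 (0.91) were further members that rose. Stc2, which encodes the second stanniocalcin, was lower, with 18.5 to 27.3 TPM in 6419c5 against 3.25 to 8.15 TPM (-2.06), and so was Angptl4 (-0.59), which lost its call after median-of-ratios scaling. Kdm3a, itself a hypoxia gene, had 39.9, 38.9 and 67.6 TPM against 38.2, 24.1 and 32.9 TPM and was not called (0.58 ± 0.27, adjusted p = 0.152).

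In glycolysis, called genes included enzymes from hexokinase to lactate dehydrogenase and the lactate exporter. Pgk1 had 1336, 1300.3 and 1347 TPM in 6694c2 against 578, 499 and 602 TPM (1.25), and Gapdh had 8461, 10197 and 7472 TPM against 3543, 3901 and 3989 TPM (1.18). The lactate exporter Slc16a3 had 174, 172 and 113 TPM against 53.6, 69.8 and 70.9 TPM (1.21). The lines did not overlap in these 3 genes. Pfkp (1.53), Pkm (1.1), Tpi1 (0.98), Pfkl (0.91), Eno1 (0.77) and Ldha (0.54) rose too, Pfkm, the muscle form of phosphofructokinase, fell (-0.90), and Hk1 (0.13) and Aldoc (0.04) were not called.

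The upstream sequences of 4 of these genes are shown because the list moved together, with matches to ACGTG, the core of the hypoxia response element, in capitals on either strand; where matches of both strands overlap, the capitals run together. They are the 250 bases before the start of Slc2a1 (chr4:119108495-119108744, plus strand), Pgk1 (chrX:106186850-106187099, plus strand), Bnip3 (chr7:138909507-138909756, minus strand) and P4ha2 (chr11:54100674-54100923, plus strand), from RefSeq on GRCm38.p6, 5′ to 3′ along the gene.
Slc2a1: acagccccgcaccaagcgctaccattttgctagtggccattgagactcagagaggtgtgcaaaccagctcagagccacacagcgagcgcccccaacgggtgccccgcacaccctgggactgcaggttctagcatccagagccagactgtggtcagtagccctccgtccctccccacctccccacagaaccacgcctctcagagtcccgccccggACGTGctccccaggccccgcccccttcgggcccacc
Pgk1: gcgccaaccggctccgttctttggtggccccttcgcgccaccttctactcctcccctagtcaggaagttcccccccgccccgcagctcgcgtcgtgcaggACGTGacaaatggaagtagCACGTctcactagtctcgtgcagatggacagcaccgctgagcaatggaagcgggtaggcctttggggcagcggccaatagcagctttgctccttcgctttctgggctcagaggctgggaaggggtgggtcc
Bnip3: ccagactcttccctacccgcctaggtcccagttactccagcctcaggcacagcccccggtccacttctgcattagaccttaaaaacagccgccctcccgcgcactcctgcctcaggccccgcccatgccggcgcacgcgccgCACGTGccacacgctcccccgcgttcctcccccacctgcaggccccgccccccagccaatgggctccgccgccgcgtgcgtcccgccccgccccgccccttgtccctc
P4ha2: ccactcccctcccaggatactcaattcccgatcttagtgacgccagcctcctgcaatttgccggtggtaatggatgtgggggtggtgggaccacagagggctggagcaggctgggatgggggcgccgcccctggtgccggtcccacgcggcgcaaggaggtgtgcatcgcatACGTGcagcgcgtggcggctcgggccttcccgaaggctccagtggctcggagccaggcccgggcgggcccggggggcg
ACGTG stood in 66.7% of the 18 hypoxia promoters with a RefSeq entry and in 25.7% of the promoters of all tested genes. The glycolysis list held it in 50% of 18 promoters. Genes at least 4-fold higher in 6694c2 held it in 15.8% of 76 promoters. A match describes letters and is not a bound site.

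Lipid synthesis genes were raised in part. Of 24 tested cholesterol genes 9 were higher and none lower (median 0.49), and of 12 fatty acid genes 6 were higher and 1 lower (median 0.39). Over all genes 8.94% were higher and 21.1% lower. With the macrophage covariate 4 and 4 were higher, beside 5.89% of all genes. Fdft1, squalene synthase, had 53.7, 49.4 and 45.1 TPM in 6694c2 against 19.9, 18.7 and 18.4 TPM (1.33). Its ranges did not overlap. Of the desaturases, Scd1 had 53.8, 45.5 and 67.7 TPM against 21.3, 15 and 14.4 TPM (1.67) and Scd2 rose by a like step (1.18). Fasn was higher (0.96) and Acss2 lower (-0.87).

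The receptor Egfr did not separate the lines, with 17.5, 19.7 and 24.5 TPM in 6694c2 against 24.4, 17.2 and 16.8 TPM (0.08 ± 0.20, adjusted p = 0.798). Neither did Erbb2 (-0.25) or Erbb3 (-0.38). Of the ligands, Hbegf was higher, with 318, 255 and 324 TPM against 99.7, 86.1 and 77.6 TPM (1.76). Nrg4 was lower (-0.67, lost after median-of-ratios scaling). On the deposited scale Areg (0.37) and Tgfa (0.36) were not called. After median-of-ratios scaling Areg was called as higher (0.58, limma adjusted p = 0.0311). Of 10 tested receptors and ligands 4 were then higher and none lower, beside 13% and 13.2% of all genes. As deposited 1 was higher and 1 lower. Of 17 tested output and feedback genes of ERK signaling 7 were higher and 1 lower (median 0.48), beside 8.94% and 21.1% over all genes. The phosphatase gene Dusp4 had 174, 189 and 223 TPM against 68.1, 65.0 and 49.7 TPM (1.67), Ier3 had 469, 470 and 362 TPM against 114, 130 and 187 TPM (1.61), and Spry2 had 59.4, 66.0 and 73.0 TPM against 31.6, 23.3 and 19.3 TPM (1.41). All 3 were higher in each 6694c2 library. Etv4 (1.1), Dusp5 (1.08), Spred3 (1.01) and Fosl1 (0.48) were the other calls, Phlda1 fell (-0.39, lost after median-of-ratios scaling), and Dusp6 (0.05), Spry4 (-0.09) and Etv5 (0.19) were not called. Myc had 80.5 to 82.7 against 70.2 to 72.2 TPM (0.19, not called), and Klf5, a transcription factor of ductal tumors, 95.9 to 104 against 92.2 to 113 TPM (-0.04, not called). Mycn (-1.05), Ccnd2 (-1.35) and Ccne1 (-1.29) were lower.

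Secreted signals of development differed strongly for single members. Inhba, which encodes the activin A subunit, had 54.9, 58.1 and 174 TPM in 6694c2 against 15.7, 4.89 and 3.87 TPM (3.41 ± 0.62, adjusted p = 0.00884; 0.055 without the 2 libraries with the lowest and the highest macrophage index). The BMP antagonist Grem1 had 41.2, 54.3 and 78.2 TPM against 16, 11.1 and 7.67 TPM (2.23). The BMP ligands Bmp4 (-1.26) and Bmp2 (-1.14) and the BMP target Id3 (-1.97) were lower, while Smad3 (1.24), Tgfb1 (0.87) and the latency protein Ltbp1 (1.43) were higher. Of 26 tested genes of the TGF-beta, activin and BMP pathway 9 were higher and 7 lower, beside 8.94% and 21.1% over all genes. After median-of-ratios scaling 10 were higher and 3 lower, beside 13% and 13.2%. In the Hedgehog pathway the ligand Ihh had 49.2, 64.7 and 45.0 TPM in 6419c5 against 0.492, 0.507 and 0.236 TPM in 6694c2 (-5.25), whereas the transducer Smo (1.99) and the target Hhip, with 1.29 to 3.09 TPM against at most 0.0678 TPM (1.5), were higher. Hhip passed the filter only through its level in 6694c2, which fixed its direction. The Notch ligand Dll4 had 12.3, 12.9 and 11.9 TPM in 6694c2 against 1.24, 1.63 and 1.21 TPM (2.51), and Jag1 was higher as well (1.07). In the Wnt pathway 3 of 15 tested genes were higher and 6 lower, beside 8.94% and 21.1% over all genes. The receptor Lgr4 had 83.5, 53 and 40.5 TPM in 6419c5 against 4.64, 4.38 and 7.80 TPM (-3.16), and Wnt10a fell by 2.70. The feedback targets Axin2 (-1.38) and Rnf43 (-1.39) were lower. Axin2 passed the filter only through its level in 6419c5, which fixed its direction.

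Genes that detoxify and buffer oxidants were lower in 6694c2. Of 21 tested genes of the NRF2 type 13 were lower and 1 higher, with a median of -0.66. Over all genes 21.1% were lower and 8.94% higher. After median-of-ratios scaling 10 were lower, beside 13.2% of all genes. The glutathione transferase Gsta3 had 53.3, 40.3 and 43.3 TPM in 6419c5 against 2.75, 6.06 and 6.19 TPM (-3.01). The carbonyl reductase Cbr3 had 59.5, 69.9 and 81.7 TPM against 8.85, 13.5 and 6.41 TPM (-2.80), and the glutathione peroxidase Gpx2 had 66.5, 74.1 and 61.9 TPM against 8.37, 20.1 and 12.6 TPM (-2.30). Every 6419c5 library was above every 6694c2 library for them. Nqo1 (-1.59), Gstm1 (-1.16) and Gclc (-0.98) were lower, while Hmox1 (-0.24) and Slc7a11 (-0.08) overlapped and Tkt was the exception that was higher (0.78). The aldehyde dehydrogenases split, with Aldh1a7 (-2.25), Aldh3a1 (-2.03) and Aldh1a1 (-1.38) lower and the folate enzyme Aldh1l1 higher, at 92.3 to 103 against 21.0 to 32.8 TPM (1.74).

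Some inflammatory mediators were much lower in 6694c2 and some were higher. The counts of calls given for them stand beside 21.1% lower and 8.94% higher over all genes. Il1rn, the antagonist of the interleukin-1 receptor, had 296, 185 and 224 TPM in 6419c5 against 21.2, 19.2 and 26.4 TPM (-3.33). The complement genes C3, with 442, 508 and 259 TPM against 29.5, 62.2 and 62.8 TPM (-2.97), and C1s1, with 25.2, 17.2 and 13.5 TPM against 1.75, 1.59 and 1.66 TPM (-2.84), fell likewise. In none of these genes did the lines overlap. C2 (-2.65), C1ra (-2.04), the regulator Cd55 (-2.31) and Cfb (-1.43) made 6 lower calls of 14 tested complement genes, and the secreted chaperone Clu was the 1 higher call, with 17880, 16986 and 16264 TPM against 7257, 7611 and 6458 TPM (1.26). Of 16 tested colony-stimulating factors and interleukins 7 were lower and 3 higher: Il18 (-2.25), Csf1 (-1.64) and Csf3 (-1.23) were among the lower ones, and Il11, with 8.05 to 16.1 TPM against 0.227 to 1.53 TPM (2.81), and Csf2, with 8.80 to 15.8 TPM against 2.93 to 4.37 TPM (1.5), among the higher. Of 26 tested chemokines 5 were lower and none higher, a share of lower calls no larger than the 21.1% of all genes, and the list median of -0.89 became 0.0055 with the macrophage covariate. The epithelial chemokine Ccl20 had 13.4, 8.64 and 9.31 TPM against 1.51, 1.09 and 0.942 TPM (-2.38), Cxcl5, a ligand for neutrophils, had 223, 117 and 127 TPM against 28.6, 22.9 and 50.5 TPM (-2.18), and Cxcl16 had 153 to 184 TPM against 56.3 to 71.5 TPM (-1.43). Cxcl1 (-0.24) and Ccl2 (-0.45) overlapped between the lines.

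Interferon and antigen presentation genes were lower in WT 6694c2, beside a lower macrophage index. Of 28 tested genes of the type I interferon response 15 were lower and none higher (median -0.91), of 22 interferon gamma genes 13 were lower (-0.79), of 19 MHC class I genes 10 (-1.0) and of 8 MHC class II genes all 8 (-2.55). With the macrophage index as covariate 8, 6, 1 and 6 of them were lower, beside 14.2% of all genes (21.1% without it). The medians were then -0.60, -0.99, -0.55 and -1.45. Without the 2 libraries of extreme index 6, 5, 2 and 2 were lower, beside 1489 of all 13110 genes. Their medians were then -0.74, -0.95, -0.74 and -1.83. Oas1a, an antiviral sensor, had 17.4, 22.6 and 24.1 TPM in 6419c5 against 3.62, 6.77 and 2.99 TPM (-2.08), and Ifih1, a sensor of double-stranded RNA, had 9.08, 6.35 and 8.48 TPM against 1.57, 1.74 and 2.03 TPM (-1.68). Isg15 (-0.66) and Ifit1 (-0.13), abundant members of the same response, overlapped. The peptide transporter subunit Tap2 had 25.8, 24.2 and 23.2 TPM against 3.11, 9.91 and 4.03 TPM (-2.06), and B2m, the light chain of class I, had 1204, 657 and 1269 TPM against 416, 408 and 479 TPM (-1.21). The class II invariant chain Cd74, at 320, 362 and 676 TPM against 34.7, 117 and 23.7 TPM (-3.19), was highest and lowest in the libraries with the highest and lowest macrophage index. In bulk RNA fewer cells of a type and less RNA per cell cannot be told apart.

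The 250 bases before the start of Oas1a (chr5:120907526-120907775, minus strand, RefSeq on GRCm38.p6, 5′ to 3′ along the gene) are shown as an example of the type I list, with matches to GAAA, any 2 bases and GAAA again, the letters of an interferon-stimulated response element, in capitals (either strand).
Oas1a: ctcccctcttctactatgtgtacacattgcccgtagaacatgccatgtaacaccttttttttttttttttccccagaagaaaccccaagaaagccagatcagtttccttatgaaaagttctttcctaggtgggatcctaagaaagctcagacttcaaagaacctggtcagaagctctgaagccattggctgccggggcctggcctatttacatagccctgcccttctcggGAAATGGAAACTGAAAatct
This motif stood in 65% of 20 promoters of the type I list and in 3.16% of the promoters of all tested genes. The interferon gamma list held it in 73.3% of 15 promoters.

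The share of all promoters that held each of the other motifs searched, on both strands, was 51.2% for GCGTG, 6.3% for TTTATG, 3.85% for CAAAGTC, 1.09% for AAAGTCCA, 5.52% for TGANTCA, 3.98% for GTTAAT, 15% for TGACNNNGC, 7.25% for TATAAA, 1.02% for TCACNCCAC and 21.7% for GGGGCGGGG. Promoters of genes at least 4-fold lower in 6694c2 were poorer in CG dinucleotides, with a median of 7 per 300 bases over 303 promoters, against 20 over 9994 promoters of tested genes and 13.5 over 76 promoters of genes at least 4-fold higher. TGACNNNGC, the letters of an antioxidant response element, stood in 23.5% of 17 promoters of the NRF2 list.

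Among genes of other host cells, 6 of 18 tested fibroblast markers were lower and none higher, beside 21.1% lower over all genes. After median-of-ratios scaling 2 were lower, beside 13.2% of all genes. The 6 included Acta2, with 26.4, 25.4 and 17.3 TPM in 6419c5 against 5.27, 4.80 and 4.18 TPM (-2.05), and Postn (-1.89). The 20 markers in the table summed to 639 to 1017 TPM in 6419c5 and 379 to 555 TPM in 6694c2. Col1a1, with 101 to 252 TPM against 53.7 to 95.1 TPM, was not called (-1.14, adjusted p = 0.0583). Of the 18 macrophage markers 1 was called, and C1qa, with 151, 299 and 1235 TPM against 89.1, 362 and 15.3 TPM, overlapped. The mast cell protease gene Mcpt4 had 114, 116 and 132 TPM against 20.9, 13.1 and 9.93 TPM (-3.02), and the other 5 mast cell markers did not reach the test. Which cells carry these transcripts was not tested.

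Cell cycle genes hardly separated the lines. Of 20 tested genes of replication and the G1 to S step 3 were lower and none higher. Of 22 mitosis genes 1 was lower. Over all genes 21.1% were lower and 8.94% higher. Mki67 had 28.1, 21.8 and 47.4 TPM in 6694c2 against 38.8, 25.6 and 27.2 TPM (0.03 ± 0.31, adjusted p = 0.947). Xist, the transcript of the inactive X chromosome, was present in all 6 WT libraries at 45.5 to 211 TPM (-0.61, not called), and the 7 Y-linked genes in the table held at most 0.0852 TPM in any of them, and the ranges of Xist overlapped.

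**Figure D3:**
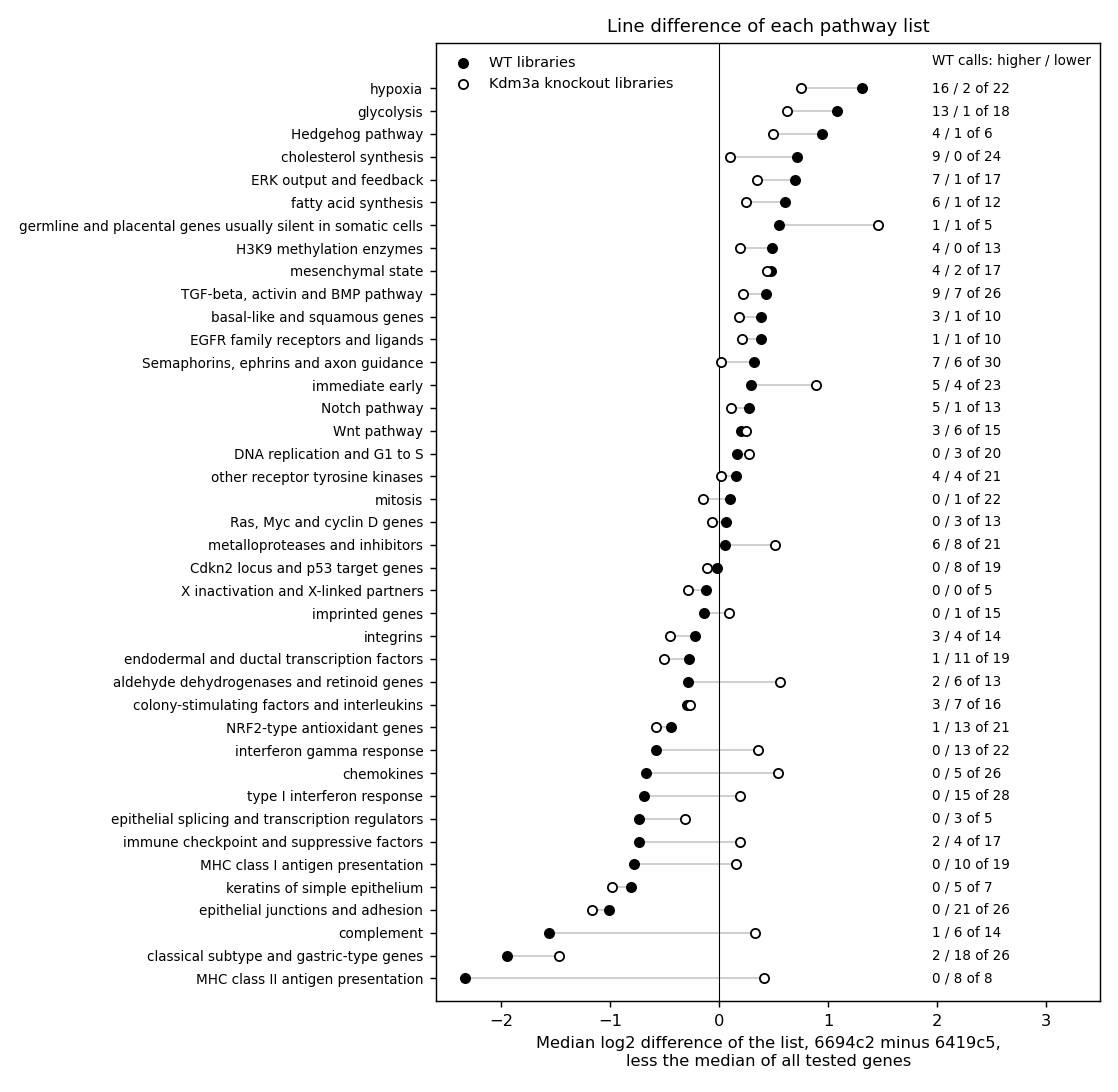
Median log2 difference (6694c2 minus 6419c5) of each pathway list with at least 5 tested genes, less the median of all tested genes, for WT libraries (filled) and knockout libraries (open); the numbers at the right are WT calls higher and lower of the tested members. Hypoxia and glycolysis lie farthest to the right in WT, and the lists of MHC class II, complement, interferon and chemokine genes are left of 0 in WT and right of 0 in the knockout libraries.

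Line differences were also read along the chromosomes. Windows of 40 genes were taken in steps of 20 genes, so that neighbouring windows share genes and are not independent. Relative to the median of all genes, tested genes on chromosome 16 had a median difference of -0.60. With each of the 6 WT libraries set singly against the mean of the other line, the chromosome's value lay between -0.63 and -0.52. As deposited, 225 of its 406 genes were lower in 6694c2 and 8 higher, beside 21.1% and 8.94% over all genes. After median-of-ratios scaling 166 were lower and 10 higher, beside 13.2% and 13%. All 19 windows of 40 neighbouring genes on this chromosome lay between -0.74 and -0.44. Sod1, a superoxide dismutase gene there, had 953, 970 and 1011 TPM in 6419c5 against 461, 443 and 338 TPM in 6694c2 (-1.25), while Ttc3 had a difference of 0.01. In the opposite direction were chromosome 12 (0.44), chromosome 14 (0.42), chromosome 13 (0.40), chromosome 19 (0.31) and chromosome 6 (0.29). Chromosomes 4 and 9 changed along their length. On chromosome 4 the first 22 windows, up to Zscan20, lay between 0.29 and 0.65, and the 14 windows from Phc2 on lay between -0.18 and 0.13. On chromosome 9 the first 8 windows, up to Hyou1, lay between -0.43 and -0.08, and the 26 windows from Crtam on lay between -0.01 and 0.40. These stretches of chromosome 9 share the tested genes from Crtam to Hyou1, so that no exact break is given. The stretch of chromosome 4 with higher values holds the Cdkn2 locus. Neither gene position nor chromosome entered the choice of genes, and the number of gene copies was not measured.

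The knockout libraries, which share no library with the WT comparison, showed the same pattern on most chromosomes: -0.64 on chromosome 16, 0.36 on chromosome 12, 0.22 on chromosome 14, 0.25 on chromosome 13, and 0.24 to 0.61 on the same first 22 windows of chromosome 4. Chromosome 10 was an exception. Its genes were lower in WT (-0.34, all 28 windows between -0.48 and -0.18) and close to the other genes in the knockout libraries (-0.08, windows between -0.24 and 0.04).

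**Figure D4:**
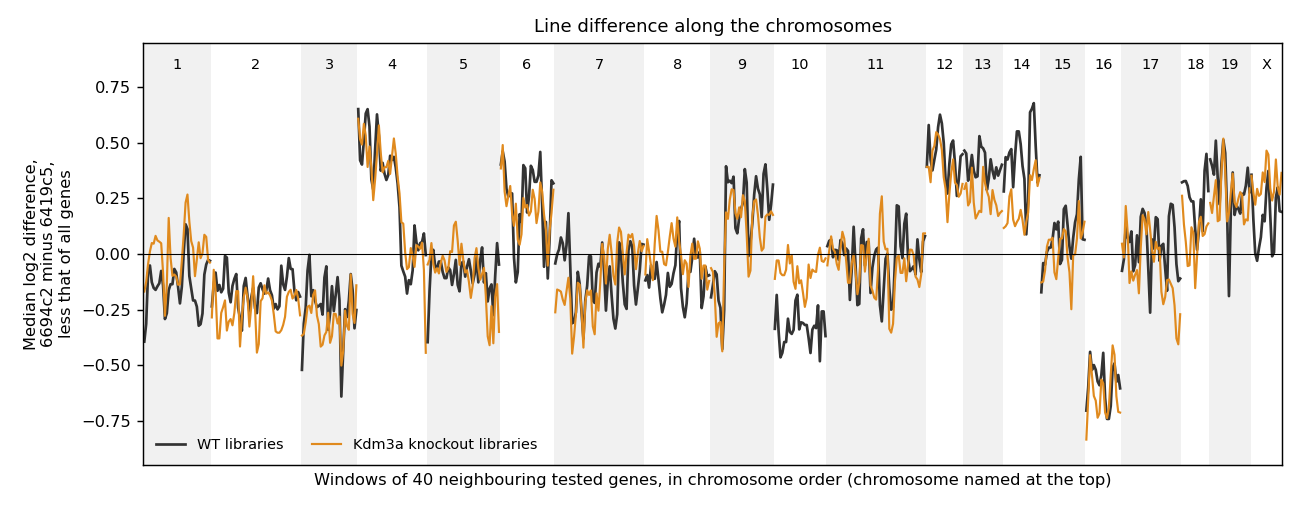
Median log2 difference (6694c2 minus 6419c5, less the median of all tested genes) in windows of 40 neighbouring tested genes along chromosomes 1 to 19 and X, for WT (dark line) and knockout libraries (orange line). Both lines run between -0.83 and -0.41 on all of chromosome 16 and drop toward 0 partway along chromosome 4; on chromosome 10 the lines part.

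The line difference could be compared with that in the 12 knockout libraries. Of the 3934 WT calls 3696 (94.0%) had the same sign there, against 76.5% of all tested genes. In the knockout libraries 7823 genes (59.7%) were called, more than in WT in a fit with more libraries, and 3340 were called with the same sign in both, which is 84.9% of the WT calls and 42.7% of the knockout calls. With the clone taken as a random block the knockout calls fell to 3738. Of the genes at least 4-fold apart in WT, 108 of 115 higher and 375 of 412 lower genes were called with the same sign. Flt1 had 46.8 to 68.4 TPM (median 51.6) in the knockout libraries of 6694c2 and 0.516 to 1.80 TPM (median 0.734) in those of 6419c5, without overlap. Krt14 had 32.5 to 54.9 TPM (median 43.8) and 2.33 to 50.4 TPM (median 3.99), so that its ranges overlapped there.

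A test of the difference between the WT and the knockout line contrast (interaction) called 1117 genes (8.52%), 704 of them WT calls. Its p-values measure the spread between libraries and leave out that between the 2 clones of a line. The gastrokines were among the called genes. Gkn3 had 11.6 to 33.5 TPM in clone 1 and 1.69 to 3.49 TPM in clone 2 of 6419c5. Over both clones the median was 7.53 TPM in the knockout libraries of 6419c5 against 111 to 175 TPM in its WT libraries, and the line contrast was smaller (interaction -4.39). Cldn7 had 0.480 to 1.96 TPM (median 1.30) there against 28.4 to 33.6 TPM in WT (interaction -2.82). The range of Cldn7 there overlapped that of WT 6694c2 (1.18 to 3.04 TPM), while Gkn3 lay between the WT levels of the lines. The receptor Fgfr4 differed by 1.22 in WT and by 3.0 in the knockout libraries, and Car9 by 1.42 in WT and -0.09 in the knockout libraries. Egfr, level in WT, was lower in the 6694c2 knockout libraries, with 3.94 to 9.38 TPM (median 5.70), than in those of 6419c5, with 19.6 to 23.1 TPM (interaction 1.74). Rhox5 had 74.6 to 167 TPM (median 117) in the 6694c2 knockout libraries against at most 11.3 TPM in WT, and the interaction was -3.31. Piezo2, a mechanosensitive channel gene, had 37.5, 34.3 and 58.4 TPM in WT 6694c2 against 9.48, 7.12 and 6.23 TPM in WT 6419c5 (2.35) and turned round in the knockout libraries (-1.94). The lectins of the Reg family turned the other way, with Reg1 at -2.86 in WT and 1.1 in the knockout libraries (not called there) and Reg3b at -1.67 and 2.20. Foxa1 did so too, at -1.01 and 1.29.

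**Figure D5:**
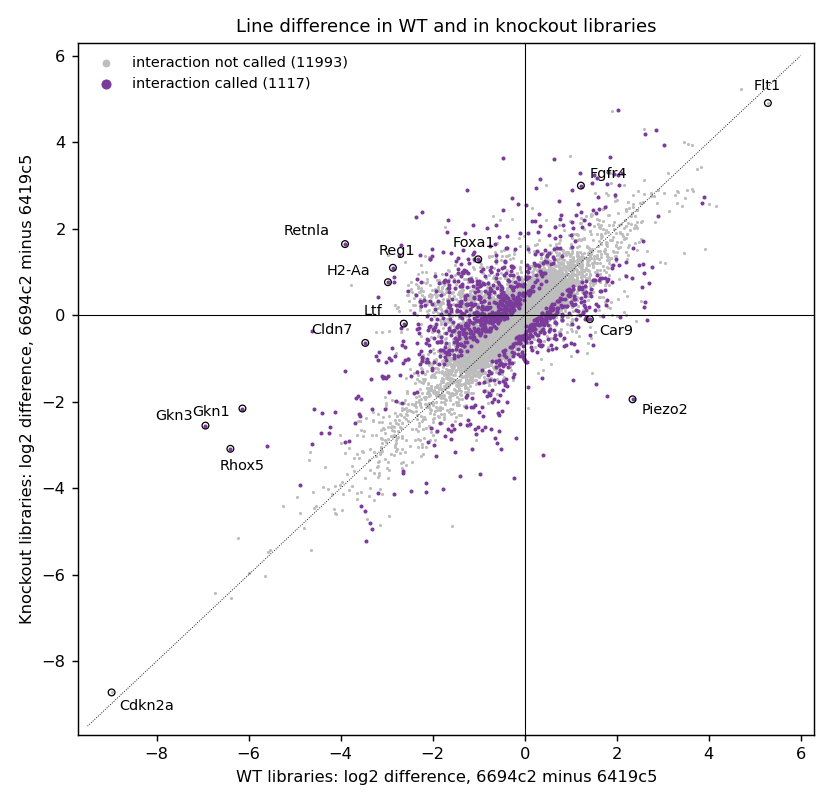
Line difference (log2, 6694c2 minus 6419c5) in the 6 WT libraries (horizontal axis) against that in the 12 knockout libraries (vertical axis) for 13110 genes, with the dotted line of equal difference. Purple points are the 1117 genes called by the interaction test. Cdkn2a and Flt1 lie near the dotted line, and Piezo2, Reg1, Retnla and H2-Aa lie in the quadrants of opposite sign.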

How the data were processed

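RNA of tumor cells sorted from tumors under the skin was sequenced in 18 libraries, of which 6 are WT. The authors deposited TPM per gene in 1 table, made with Salmon on mm10 per the submitters' processing notes; its name mentions a batch, and whether the values were adjusted for one is not given in the sources used here. TPM keep no read depth, so counting error is unknown. The 3 libraries of each group were taken as replicates by the labels. The letters A and B of the knockout columns were taken as clones 1 and 2.

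Line differences were fitted with limma 3.58.1 (R 4.3.3, trended variance) on log2(TPM + 1) over genes whose mean in the 6 WT libraries reached 1 TPM, with 4 residual degrees of freedom, and Benjamini-Hochberg adjustment over all 13110 genes at 0.05. The model was tested on simulated data. The knockout contrast used 12 libraries in 4 clone groups, and the interaction all 18. Positions and promoters are from RefSeq (GRCm38.p6), with 12801 tested genes placed and 9994 promoters matched. The text names the 15 genes with the largest called difference in each direction (at least 5 TPM in the higher line, no overlap), up to 6 called members of each list with uncalled members beside them, genes present in a single line, and a few set genes; other named genes were chosen after their values were seen. Members and gene lists were chosen with earlier results of these data known. Some genes that these rules name are not reported here. Alternatives were other pseudocounts, filters, scalings, designs and left-out libraries.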

Additional observations from a re-analysis of the deposited data

Results flagged for a closer look

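The line difference of 54 named genes with a WT call differed between the WT and the knockout libraries by limma's interaction test (adjusted p under 0.05). The interaction is the WT difference less the knockout difference on the log2 scale, so a negative value means that 6694c2 stood lower against 6419c5 in WT than after knockout of Kdm3a. The test averages the 2 knockout clones of a line, and its p-values leave out the spread between clones. Macrophage levels also differed between clones, with an index from 3.55 to 8.4 in the knockout libraries of 6419c5. The part of macrophage levels in these values was not tested.

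Gastric, junction and related epithelial genes had interactions of Gkn3 (-4.39), Gkn2 (-4.26), Gkn1 (-3.98), Reg1 (-3.96), Reg3b (-3.87), Cldn7 (-2.82), Agr2 (-2.58), Pigr (-2.41), Foxa1 (-2.30), Cldn4 (-2.15), Cldn3 (-2.14), Spint1 (-2.04), Muc5ac (-1.87), Spdef (-1.86) and B4galnt2 (-0.97). Genes of host cells, interferon, antigen presentation and inflammation had Retnla (-5.55), H2-Aa (-3.73), Cd74 (-3.61), Mcpt4 (-1.93), Oas1a (-1.81), Tap2 (-1.81), B2m (-1.46), Il18 (-1.42), Acta2 (-1.21), Fas (-1.05) and Ifih1 (-0.78). Other negative values were those of Rhox5 (-3.31), Fgfr4 (-1.77), Stc1 (-1.51), Wnt10a (-1.32), Hoxa10 (-0.98), Fosl1 (-0.89) and Etv4 (-0.62).

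Genes whose difference was more positive in WT were Piezo2 (4.29), Cplx2 (2.40), Fzd8 (2.32), Bmp2 (1.96), Mycn (1.71), Car9 (1.51), Nr2f1 (1.26), Ndrg1 (1.2), Tlcd2 (1.17), C2 (0.99), Ltbp1 (0.83), Krt16 (0.81), Pfkp (0.72), Smo (0.69), Axl (0.61), Aldh3a1 (0.58), Bmp4 (0.58), Fdft1 (0.55), Tkt (0.54), Scd2 (0.52) and Tpi1 (0.52). Piezo2 changed sign between the contrasts, and Cplx2 and Fzd8, present in WT 6694c2, were low in all knockout libraries.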

How the results depend on the processing

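Of 232 named genes 185 were called, and 146 of these kept call and sign under every alternative run. None of the 185 changed sign. Some uncalled genes did, such as Ccl2 (-0.45, and 0.87 with the macrophage covariate). The 3934 calls became 6194 with all 18 libraries in 1 model, 2544 to 3583 with 1 WT library left out (2544 without 6694c2 replicate 1, 2620 without 6419c5 replicate 1), and 2189 without both libraries of extreme macrophage index, an alternative chosen after seeing the data. The 1172 higher genes became 1930 after quantile normalization, 1901 with all 18 libraries, 772 with the macrophage index as covariate, 711 to 1086 with 1 library left out (711 without 6694c2 replicate 1, 777 without 6419c5 replicate 2) and 700 without both extreme libraries. The 2762 lower genes became 1728 after median-of-ratios scaling, 1547 after quantile normalization, 4293 with all 18 libraries, 1795 to 2497 with 1 library left out (1795 without 6419c5 replicate 1, 1825 without 6419c5 replicate 3, 1833 without 6694c2 replicate 1) and 1489 without both extreme libraries. The cause of these changes was not tested, beyond the fewer or added libraries. The 7823 knockout calls became 3738 with clones as a random block (correlation 0.50).

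With the replicate number as a block, 2904 genes were called, 835 higher and 2069 lower. Same-numbered libraries of the lines had correlations of -0.17, 0.40 and -0.28, within the -0.62 to 0.66 of all pairs across the lines. With 3 libraries per line these values cannot show whether the numbers paired the samples.

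TPM hold no read counts, so the precision of low values is unknown.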

Other observations

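Immediate early genes, which answer stress and growth signals within minutes, split in WT, with 5 of 23 tested genes higher in 6694c2 and 4 lower (median 0.07), beside 8.94% higher and 21.1% lower over all genes. After median-of-ratios scaling 8 were higher and 2 lower, beside 13% and 13.2% over all genes. In the knockout libraries 16 were higher and none lower (median 0.87, over all genes -0.02). Over all genes 26.4% were higher there and 33.3% lower. These knockout calls leave out the spread between clones, and with the clone as a random block the 7823 calls over all genes fell to 3738. Of 13 tested enzymes of H3K9 methylation, the mark that Kdm3a removes, 4 were higher in WT 6694c2 and none was lower (median 0.27), and no call was left without both libraries of extreme macrophage index. Of 15 tested imprinted genes 1 was lower and none higher in WT. Of 21 tested metalloproteases and inhibitors 6 were higher and 8 lower, and of 14 integrins 3 were higher and 4 lower. These counts too stand beside 8.94% higher and 21.1% lower over all genes.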
